A study of Mus musculus with 7 samples.

Results

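The genes described here are 6 regulators and markers of the tendon lineage in the mouse: Scx, Mkx, Egr1, Egr2, Tnmd and Thbs4. They were chosen by gene symbol, after transcripts had been matched to mouse genes, from 44818 features in all (42689 genes and the transcripts that matched no gene). RNA was sequenced from 7 libraries of hindlimb tendon of mice on a C57BL/6 background, in a study of the kinase TAK1 in heterotopic ossification, in which cartilage and bone form outside the skeleton. In the tenotomy group (n = 2) the mice had received a partial-thickness dorsal burn (heated aluminium at 60 °C on 30% of the body surface, for 18 s) together with a cut through the Achilles tendon of the left hindlimb, and the site of the cut was taken after 3 weeks. The contralateral group (n = 3) consisted of the uncut tendon of the right hindlimb of mice given the same burn and tenotomy, at the same time, so it too came from burned animals. The uninjured group (n = 2) was tendon of wild-type mice with neither burn nor tenotomy. Tissue was taken between the gastrocnemius muscle and the calcaneus. No library came from mice with altered TAK1, and age and sex are not given in the sources used here. The labels do not say whether libraries of a group came from separate animals, so p-values measure only the spread between these libraries.

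Tendon cells are fibroblasts that arise from progenitors expressing Scx. Scx encodes scleraxis, a basic helix-loop-helix factor that binds E-boxes and acts downstream of TGF-beta signalling, and it drives transcription of tendon collagen and of Tnmd. Mkx encodes the homeodomain factor mohawk, and Egr1 and Egr2 encode zinc finger factors of the early growth response family, which are quickly induced by mechanical load and growth factors and which promote collagen expression in tendon. Tnmd encodes tenomodulin, a transmembrane glycoprotein used as the marker of differentiated tendon cells, and Thbs4 encodes thrombospondin-4, a matrix protein abundant in tendon and muscle.

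Library totals lay between 25927171 and 36725106 estimated counts, but 5 features, among them Gm42418 and mitochondrial mt-Rnr2, held 76.4% to 81.4% of them, which left 4934057 to 8375626 counts for all other features. The members lay far apart in depth, from 15 counts of Scx in contralateral replicate 3 to 6155 counts of Thbs4 in tenotomy replicate 1. The uninjured libraries did not resemble each other. By the Euclidean distance over log2 CPM, uninjured replicate 1 lay 59.56 and 61.06 from the tenotomy libraries and 114 from uninjured replicate 2. The tenotomy libraries lay closer to each other (54.47). Uninjured replicate 2 lay 64.47 to 67.37 from the contralateral libraries. By the chi-square per degree of freedom of their counts, uninjured replicate 1 and tenotomy replicate 2 differed no more (4.20) than the tenotomy libraries from each other (4.98), against 102.9 between the uninjured libraries. The chi-square grows with depth, and tenotomy replicate 1 had more counts outside the 5 features (6545702) than uninjured replicate 1 (4934057). The labels give no reason why the uninjured libraries differ. Whether uninjured replicate 1 carries the right label or was dissected differently was not tested. CPM are estimated counts scaled to a common library total with TMM factors, and log2 is taken with a small prior count. The 20 listed markers of skeletal muscle together had 24496 to 26998 CPM in the contralateral libraries, 2095 and 2101 CPM in the tenotomy libraries, 2673 CPM in uninjured replicate 1 and 18082 CPM in uninjured replicate 2. The 15 listed tendon matrix and sheath genes had 1274 to 1664 CPM in the contralateral libraries, 8009 and 8027 CPM in the tenotomy libraries and 4646 to 7282 CPM in the uninjured libraries, so transcripts of both tissues were present in every library labelled tendon. In such bulk tissue, fewer cells of a type and less RNA per cell cannot be told apart. Each comparison that uses the uninjured group is therefore given with and without each of its libraries.

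Per length, Thbs4 was the most abundant of the genes and Tnmd the next in every group, with the transcription factors far below. Levels of different genes were compared as TPM, the deposited abundance per transcript length, rescaled after leaving out the 5 most abundant features, which held 91.3% to 93.2% of all TPM. In the contralateral group Thbs4 had 46.3 ± 13.0 TPM and Tnmd 11.8 ± 3.87 TPM (SD, n = 3). Mkx followed with 3.82 ± 2.45 TPM, Scx with 1.09 ± 0.254 TPM, Egr1 with 0.990 ± 0.0301 TPM and Egr2 with 0.709 ± 0.0448 TPM. Scx and Egr1 are neighbours in this order that did not differ beyond their spread. In the tenotomy group the order was Thbs4 with 113.6 ± 4.15, Tnmd with 48.9 ± 0.230, Mkx with 4.39 ± 0.633, Egr1 with 4.10 ± 0.481, Scx with 3.35 ± 0.727 and Egr2 with 1.11 ± 0.306 TPM (SD, n = 2). Mkx, Egr1 and Scx were not separated beyond their spread there. In the uninjured group Thbs4 had 73.6 ± 45.3 and Tnmd 30.2 ± 17.9 TPM, a wide spread that comes from the difference between the libraries. Within each library Thbs4 lay above Tnmd, with 105.6 against 42.85 TPM in replicate 1 and 41.61 against 17.58 TPM in replicate 2. Below them in the uninjured group stood Mkx with 3.73 ± 0.840, Egr1 with 2.25 ± 0.548, Scx with 1.53 ± 0.617 and Egr2 with 0.771 ± 0.125 TPM (SD, n = 2). The means of Egr1 and Scx did not differ beyond their spread. Within each uninjured library Egr1 lay above Scx (2.64 against 1.96 TPM in replicate 1 and 1.86 against 1.09 TPM in replicate 2).

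**Figure D1:**
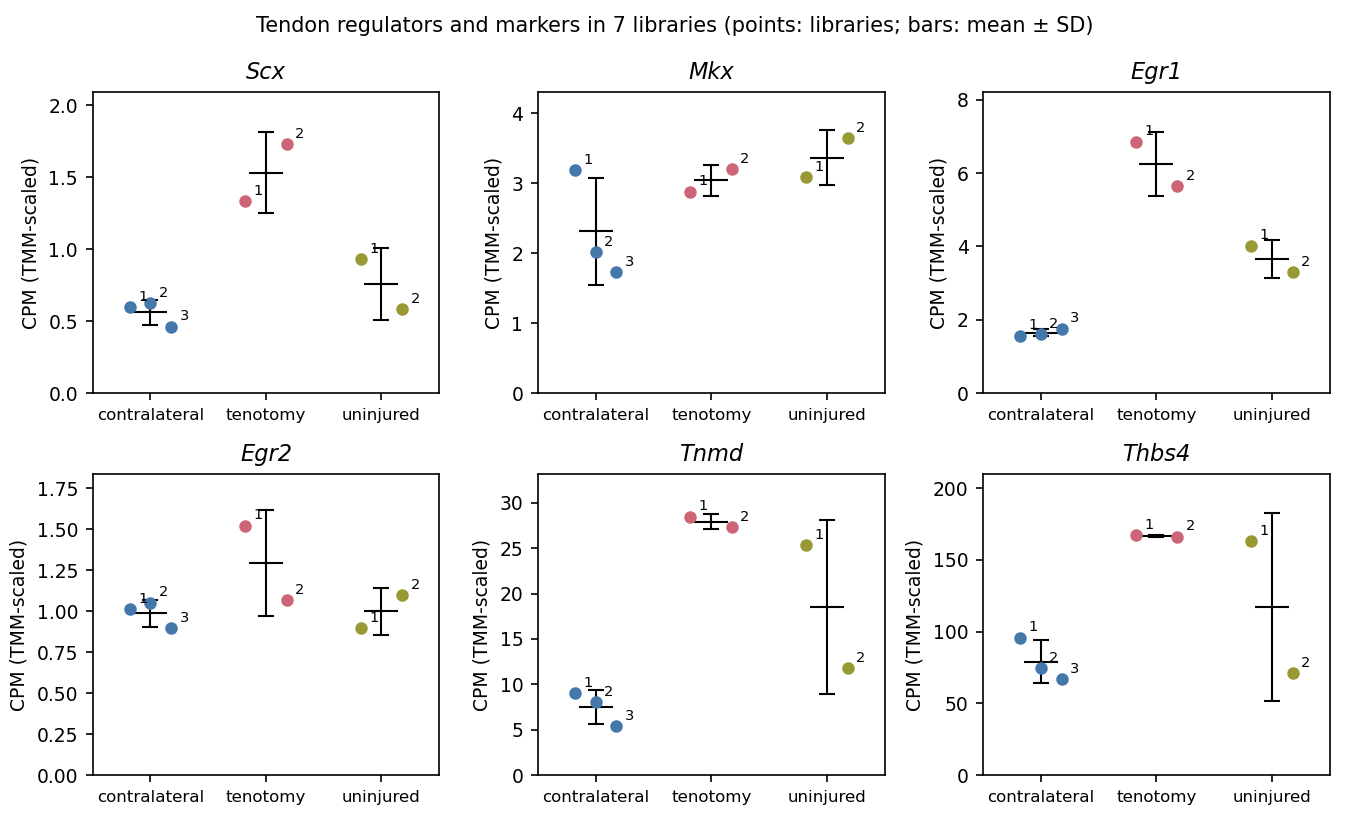
Level of each gene in CPM (linear axis from 0, its own scale per gene) in each of 7 libraries, with replicate numbers beside the points and the group mean ± SD as black bars. For Scx, Egr1, Tnmd and Thbs4 both tenotomy libraries lie above all 3 contralateral libraries, and for Tnmd and Thbs4 uninjured replicate 1 lies near the tenotomy libraries.

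The comparison of tenotomy site with contralateral tendon asks how expression in the cut tendon differs from that of the uncut tendon in equally burned mice. At the tenotomy site 3 of the 6 genes rose, the transcription factors Scx (2.70-fold) and Egr1 (3.77-fold) and the tendon cell marker Tnmd (3.71-fold), and none fell. Thbs4 was 2.11-fold higher and missed the threshold, and Mkx and Egr2 were each 1.32-fold higher without passing. Over all 16028 features tested, 13.6% were called higher and 15.4% lower, 29.0% in either direction. All 6 genes had enough counts to be tested.

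Scx, on chromosome 15 (chr15:76457452-76459458, plus strand, GRCm38 with the GENCODE M21 annotation; ENSMUSG00000034161.8), is quantified from 1 transcript of 1136 bases. It had 16, 22 and 15 counts in the contralateral libraries, 49 and 52 in the tenotomy libraries and 26 and 17 in the uninjured libraries. Counting error alone is wide at this depth, with exact Poisson 95% intervals of 8.40 to 24.7 for the lowest and 38.8 to 68.2 for the highest library. These extremes did not touch, but the intervals of tenotomy replicate 1 (36.25 to 64.78) and uninjured replicate 1 (16.98 to 38.1) overlapped. In CPM the contralateral libraries had 0.600, 0.626 and 0.464, the tenotomy libraries 1.33 and 1.73 and the uninjured libraries 0.934 and 0.585. Both tenotomy libraries lay above every other library, and uninjured replicate 2 lay within the contralateral range. Scx rose by a log2 fold change of 1.43 ± 0.28 (SE; 95% interval 0.79 to 2.07) with an edgeR adjusted p of 0.0167. Scx lies inside the gene Bop1, which runs on the opposite strand without overlap of exons. Because the library kit is not stated to keep the strand, unspliced Bop1 reads could not be told apart from Scx reads. Bop1 itself had 28, 55 and 52 counts in contralateral, 47 and 54 in tenotomy and 31 and 53 in uninjured libraries. These counts are not scaled for depth and do not measure unspliced Bop1 reads. The part of such reads in Scx was not tested.

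Mkx, on chromosome 18 (chr18:6934518-7004780, minus strand; ENSMUSG00000061013.6), was not separated between the groups. It had 85, 71 and 56 counts in the contralateral libraries, 106 and 96 at the tenotomy site and 86 and 106 in uninjured tendon. In CPM these were 3.19, 2.02 and 1.73, then 2.88 and 3.20, then 3.09 and 3.65. Contralateral replicate 1 lay between the tenotomy libraries, so the groups overlapped. Tenotomy over contralateral, the log2 fold change was 0.40 ± 0.26 (SE; 95% interval -0.19 to 1.00, edgeR adjusted p = 0.268), and without contralateral replicate 1 it was 0.69 (edgeR adjusted p = 0.0569). Of the 4 Mkx transcripts, the longest coding one of 3202 bases held 69.0% to 90.9% of the counts. Contralateral replicate 1 had the lowest share. It had counts on all 3 short transcripts, which weigh more per length, as had tenotomy replicate 1 and both uninjured libraries. The Mkx level of contralateral replicate 1 was 6.65 TPM without the 5 most abundant features, against 2.45 and 2.37 TPM in the other contralateral libraries and 4.84 and 3.94 TPM at the tenotomy site. As log2 ratio of mean deposited TPM, Mkx was -0.056 for tenotomy over contralateral. Without the 5 most abundant features the sign was positive, with means of 4.39 TPM in tenotomy and 3.82 TPM in contralateral libraries.

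Egr1, on chromosome 18 (chr18:34859823-34864984, plus strand; ENSMUSG00000038418.7), rose about as much as Tnmd, and its fitted change had the smallest error of the 6 genes. It had 42, 57 and 57 counts in the contralateral libraries, 252 and 169 at the tenotomy site and 112 and 96 in uninjured tendon. In CPM the contralateral libraries lay closely together with 1.57, 1.62 and 1.76, the tenotomy libraries had 6.85 and 5.63 and the uninjured libraries 4.02 and 3.30. The 3 groups did not overlap, with the uninjured libraries between the others. Egr1 rose by a log2 fold change of 1.92 ± 0.16 (SE; 95% interval 1.53 to 2.30) with an edgeR adjusted p of 0.0143. Of 2 transcripts, the one of 3036 bases held 79.2% to 100% of the Egr1 counts.

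Egr2, on chromosome 10 (chr10:67535475-67542188, plus strand; ENSMUSG00000037868.15), had similar counts in most libraries: 27, 37 and 29 in contralateral, 56 and 32 at the tenotomy site and 25 and 32 in uninjured tendon. In CPM these were 1.01, 1.05 and 0.897, then 1.52 and 1.07, then 0.898 and 1.10. Both tenotomy libraries lay above the contralateral ones, but replicate 2 only just. Its log2 fold change was 0.40 ± 0.23 (SE; 95% interval -0.14 to 0.94, edgeR adjusted p = 0.229), and it was 0.11 without tenotomy replicate 1. The 2965-base transcript starting at position 67537869 held 48.1% to 100% of the Egr2 counts.

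Tnmd, on the X chromosome (chrX:133850980-133865577, plus strand; ENSMUSG00000031250.8), has 1 transcript, of 1353 bases. It had 242, 283 and 175 counts in the contralateral libraries, 1047 and 819 at the tenotomy site and 705 and 342 in uninjured tendon. In CPM the contralateral libraries had 9.07, 8.05 and 5.41, the tenotomy libraries 28.5 and 27.3 and the uninjured libraries 25.3 and 11.8. Tenotomy and contralateral libraries did not overlap, and uninjured replicate 1 was close to the tenotomy level while replicate 2 was close to the contralateral level. Tnmd rose by a log2 fold change of 1.89 ± 0.34 (SE; 95% interval 1.11 to 2.68) with an edgeR adjusted p of 0.0167.

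Thbs4, on chromosome 13 (chr13:92751590-92794818, minus strand; ENSMUSG00000021702.7), was the most deeply counted of the genes. It had 2558, 2620 and 2158 counts in the contralateral libraries, 6155 and 4990 at the tenotomy site and 4547 and 2061 in uninjured tendon. In CPM these were 95.9, 74.6 and 66.7, then 167.4 and 166.3, then 163.4 and 70.9. The tenotomy libraries lay above all contralateral libraries, and the uninjured libraries stood at the levels of one group each. The log2 fold change of tenotomy over contralateral was 1.08 ± 0.34 (SE; 95% interval 0.27 to 1.88) and its edgeR adjusted p of 0.0513 just missed the threshold of 0.05. This error includes the spread between the uninjured libraries, since all 7 libraries share 1 fit: with only the 5 tenotomy and contralateral libraries fitted, Thbs4 passed with an edgeR adjusted p of 5.96e-05 at a log2 fold change of 1.07. That fit called 7385 of 16014 features.

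The sequence just upstream of the gene is printed for Tnmd and Thbs4, because these are the most abundant members and Tnmd is known as a target of Scx, and for Egr2 at the start of its most counted transcript, because it holds the letters known to be bound by serum response factor, through which immediate early genes are induced. The capitals in the Thbs4 sequence mark an E-box (CAAATG, 115 to 110 bases before the start) and 3 GC boxes (GGGCGG or its complement), and in the Egr2 sequence a CArG box (72 to 63 bases before the start). In the Tnmd sequence no motif searched was found. All come from RefSeq with the build GRCm38.p6: chrX:133850758-133850979 on the plus strand for Tnmd, chr13:92794819-92795068 on the minus strand for Thbs4 and chr10:67537787-67537816 on the plus strand for Egr2.
Tnmd upstream: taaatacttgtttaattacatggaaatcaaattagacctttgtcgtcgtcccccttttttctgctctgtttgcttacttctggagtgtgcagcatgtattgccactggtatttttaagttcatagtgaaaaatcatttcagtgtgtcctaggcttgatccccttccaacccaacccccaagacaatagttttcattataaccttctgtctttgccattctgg
Thbs4 upstream: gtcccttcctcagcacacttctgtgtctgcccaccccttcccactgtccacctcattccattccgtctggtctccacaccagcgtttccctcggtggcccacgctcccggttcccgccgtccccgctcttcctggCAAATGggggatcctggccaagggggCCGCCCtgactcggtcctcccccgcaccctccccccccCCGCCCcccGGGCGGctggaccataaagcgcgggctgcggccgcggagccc
Egr2 upstream site: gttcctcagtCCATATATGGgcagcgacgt
The search covered both strands of the 250 bases before each start for E-boxes (CANNTG), an EGR site (GCGNGGGCG), GC boxes (GGGCGG), CArG boxes and the element TATAAA. Of 32851 such windows of the genome, 66.2% held an E-box, 32.7% a GC box, 4.70% the EGR site, 1.47% a CArG box and 12.4% TATAAA. An entry was found for 3 of the 6 genes, and the EGR site was found in none of the windows of Tnmd, Thbs4 and Egr2.

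Of the 6 genes, 5 had both tenotomy libraries above all contralateral ones, the exception being Mkx; 31.9% of all features tested did so. The calls of Scx, Egr1 and Tnmd were lost when any 1 contralateral or tenotomy library was left out. Without contralateral replicate 1, 2 or 3 the edgeR adjusted p of all 3 genes was 0.0501, 0.0632 and 0.0642 in turn, and without tenotomy replicate 1 or 2 it was 0.124 and 0.121. No feature of any kind passed in these 5 fits, while 4538 to 6148 had an unadjusted p under 0.05. The log2 fold changes themselves moved little over them, from 1.23 to 1.61 for Scx, 1.76 to 2.04 for Egr1 and 1.70 to 2.05 for Tnmd. Without uninjured replicate 1 or 2, in contrast, all 3 genes and Thbs4 passed. More features of all kinds were then called than in the fit of all 7 libraries.

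**Figure D2:**
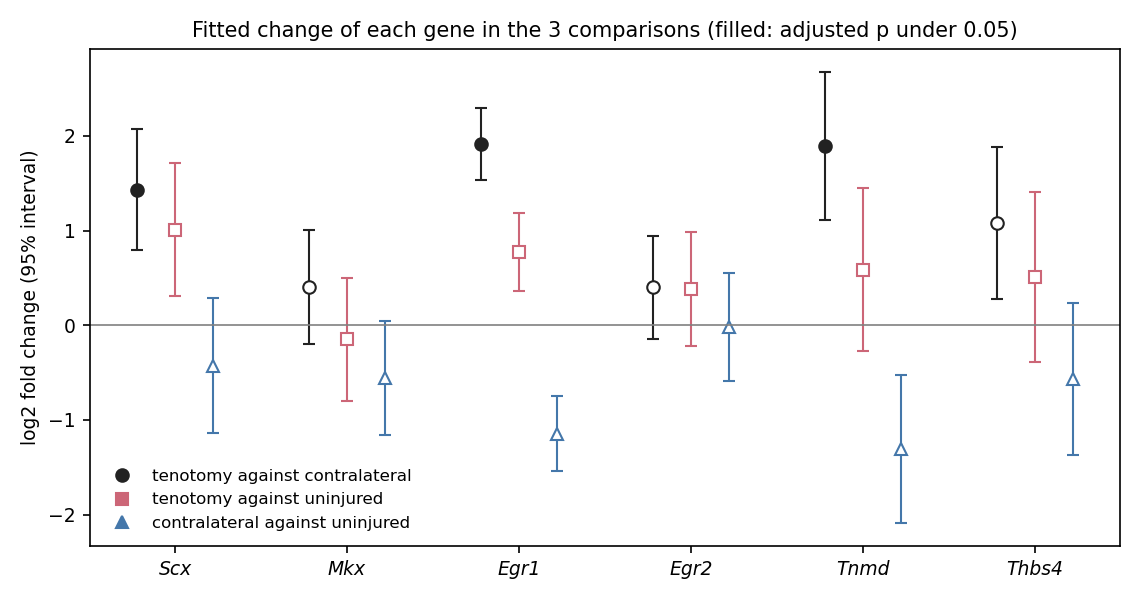
Fitted log2 fold change of each gene (points) with its 95% interval (bars) in the 3 comparisons, filled where the edgeR adjusted p is under 0.05. Scx, Egr1 and Tnmd have filled points, all of tenotomy against contralateral (1.43, 1.92 and 1.89), and no gene has one in the comparisons with uninjured tendon.

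The comparison of tenotomy site with uninjured tendon sets the injured tissue against mice without burn or cut. None of the 6 genes passed, and none of the 16028 features did (0.00% called by edgeR; 1741, or 10.9%, had an unadjusted p under 0.05). DESeq2 called 145 features and limma-voom 0, and none of the 6 genes was among the calls, though DESeq2 gave no adjusted p for Scx, Mkx, Egr1 and Egr2. Both tenotomy libraries lay above both uninjured ones for Scx, Egr1, Tnmd and Thbs4, as they did for 20.1% of all features.

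The fitted log2 fold changes over uninjured tendon were 1.01 ± 0.30 for Scx (SE; 95% interval 0.30 to 1.71, edgeR adjusted p = 0.45) and 0.77 ± 0.18 for Egr1 (0.36 to 1.18, adjusted p = 0.45). Their intervals exclude 0, but neither gene passed after adjustment over all features. The value was 0.59 ± 0.37 for Tnmd (-0.27 to 1.45, edgeR adjusted p = 0.557) and 0.51 ± 0.38 for Thbs4 (-0.38 to 1.40, adjusted p = 0.609). For Egr2 it was 0.38 ± 0.26 (-0.22 to 0.98, edgeR adjusted p = 0.582) and for Mkx -0.15 ± 0.28 (-0.80 to 0.50, adjusted p = 0.845).

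This comparison changed with the uninjured library used. Against uninjured replicate 2 alone, the log2 fold changes at the tenotomy site were 1.38 for Scx, 0.93 for Egr1, 1.25 for Tnmd and 1.24 for Thbs4. Against uninjured replicate 1 alone, the log2 fold changes were 0.70 for Scx, 0.64 for Egr1, 0.14 for Tnmd and 0.03 for Thbs4. A single uninjured library has no spread of its own and is assumed in these fits to vary like the other groups, so only the changes are given. The matrix and membrane markers thus differed between the uninjured libraries by 1.10 for Tnmd and 1.20 for Thbs4 in log2 CPM, against 0.62 for Scx and 0.28 for Egr1.

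**Figure D3:**
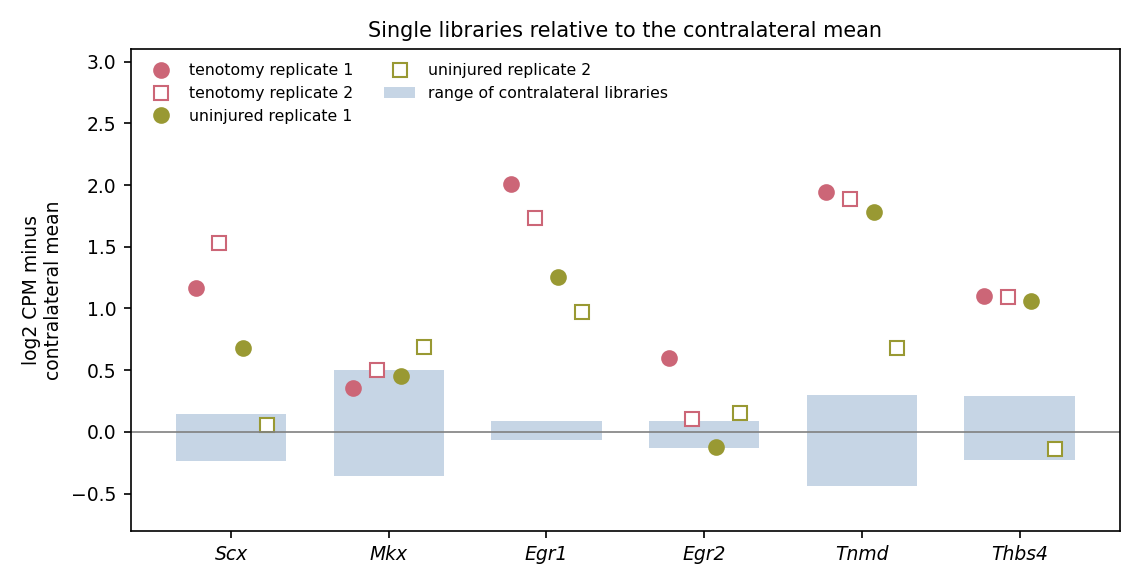
Difference in log2 CPM between each tenotomy or uninjured library and the mean of the 3 contralateral libraries, with the range of the contralateral libraries as shaded boxes. Egr1 lies above the box in all 4 libraries (2.01, 1.73, 1.25 and 0.97), whereas for Thbs4 uninjured replicate 1 (1.06) stands beside the tenotomy libraries (1.10 and 1.09) and uninjured replicate 2 (-0.14) inside the box.

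The comparison of contralateral with uninjured tendon sets uncut tendon of burned, tenotomised mice against tendon of untreated mice. None of the 6 genes passed, nor did any feature in edgeR (0.00%; 3084, or 19.2%, had an unadjusted p under 0.05), while DESeq2 called 223 features and limma-voom 0. Egr1 and Tnmd had all 3 contralateral libraries below both uninjured ones, which 16.6% of features had. The log2 fold change of contralateral over uninjured was -1.14 ± 0.17 for Egr1 (SE; 95% interval -1.54 to -0.75, edgeR adjusted p = 0.169) and -1.30 ± 0.34 for Tnmd (-2.09 to -0.52, adjusted p = 0.215). DESeq2 called both, with adjusted p of 0.00956 for Egr1 and 0.0325 for Tnmd.

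The other 4 genes had intervals that include 0. The log2 fold change of contralateral over uninjured was -0.57 ± 0.35 for Thbs4 (-1.37 to 0.24, edgeR adjusted p = 0.376), -0.55 ± 0.26 for Mkx (-1.16 to 0.05, adjusted p = 0.278), -0.43 ± 0.31 for Scx (-1.14 to 0.29, adjusted p = 0.449) and -0.02 ± 0.25 for Egr2 (-0.59 to 0.55, adjusted p = 0.973). Against uninjured replicate 1 alone, the log2 fold changes were -1.28 for Egr1, -1.76 for Tnmd and -1.05 for Thbs4. Against uninjured replicate 2 alone, Egr1 had -0.996, Tnmd -0.65 and Thbs4 0.15. Egr1 was thus lower in contralateral tendon than in either uninjured library by a similar amount, while the value for Thbs4 changed sign with the library. The 3 comparisons share libraries, so their values for a gene are not independent of each other.

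The numbers in the sample titles fall into 3 series, which no label calls a batch: one with the contralateral libraries and tenotomy replicate 1, one with tenotomy replicate 2 and uninjured replicate 1, and one with uninjured replicate 2. Within the first, tenotomy replicate 1 stood above the contralateral mean by 1.16 for Scx, 2.01 for Egr1, 1.95 for Tnmd and 1.10 for Thbs4 in log2 CPM, and by 0.36 for Mkx and 0.60 for Egr2. Within the next, tenotomy replicate 2 stood above uninjured replicate 1 by 0.85 for Scx, 0.48 for Egr1, 0.23 for Egr2, 0.11 for Tnmd, 0.05 for Mkx and 0.03 for Thbs4. In the first set Egr1, Tnmd and Thbs4 are close to their fitted values over all libraries (1.92, 1.89 and 1.08) and Scx is below its own (1.43), and in the second Tnmd and Thbs4 are nearly level. Neither has replicates on both sides.

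Around these regulators, genes of the tendon matrix rose at the tenotomy site. Of 15 listed tendon matrix and sheath genes, all tested, 11 rose and 1 fell against contralateral tendon, with a median log2 fold change of 2.61, against -0.001 over all features tested and 1.26 over the 6 genes; of all features, 13.6% rose and 15.4% fell. The largest rises were those of Lum, a collagen-binding proteoglycan (3.85), and Col14a1, a fibril-associated collagen (3.52). Lum had 7.91, 10.1 and 8.10 CPM in contralateral, 125.2 and 125.2 CPM in tenotomy and 99.3 and 8.60 CPM in uninjured libraries, the same split of the uninjured libraries as in Tnmd and Thbs4. Col1a1 did not split so, with 373.2 to 478.1 CPM in contralateral, 2565 to 2583 CPM in tenotomy and 2214 to 2357 CPM in uninjured libraries. Nor did Col1a2, with 336.8 to 469.4 CPM in contralateral, 1852 CPM in tenotomy and 1489 to 1711 CPM in uninjured libraries. The gene that fell was Tppp3, a marker of the tendon sheath (-0.73, edgeR adjusted p = 0.0394). Dcn (0.32), Fmod (0.09) and Comp (0.81, edgeR adjusted p = 0.104) did not pass, whereas the collagen genes Col1a1 (2.55) and Col1a2 (2.18) were among those that rose.

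Close relatives of the 6 genes were compared with them. Of 10 listed, 8 were tested and 4 rose, with a median of 2.46, while 13.6% of all features tested rose. Cnmd, encoding chondromodulin, the cartilage relative of tenomodulin, rose by 4.39 (edgeR adjusted p = 0.0143) from 1, 3 and 3 counts in contralateral to 62 and 47 counts in tenotomy libraries, with 3 and 6 counts in uninjured ones. Unlike Tnmd, Cnmd was thus low in both uninjured libraries. The thrombospondins Thbs1 (2.61), Thbs2 (2.74) and Thbs3 (2.31) rose, while Comp, another thrombospondin, had 0.81 and Thbs4 itself 1.08 without passing. Thbs1 had 31.7, 23.5 and 15.8 CPM in contralateral, 140.9 and 147.9 CPM in tenotomy and 132.7 and 19.8 CPM in uninjured libraries. Egr3 was at 1 to 3 counts in contralateral and at 19 and 11 counts in tenotomy libraries (2.73, edgeR adjusted p = 0.0759), and Egr4 had 0 counts in every library. Tcf15, encoding paraxis, the relative of scleraxis, had 13, 19 and 11 counts in contralateral and 7 and 2 in tenotomy libraries (-1.75, edgeR adjusted p = 0.0589). Of the Iroquois homeobox genes related to Mkx, Irx3 had a log2 fold change of -0.34 without passing and Irx5 was too low to be tested.

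Other genes of the immediate early response, to which Egr1 belongs, also rose. Of 14 listed immediate early genes and EGR co-repressors, all tested, 8 rose and 1 fell at the tenotomy site against contralateral tendon, with a median of 0.89. Of all features tested, 13.6% rose and 15.4% fell. Fosb (2.83) and Fos (2.59), subunits of the AP-1 factor, had the largest rises. Fosb had 12, 4 and 3 counts in contralateral, 53 and 46 in tenotomy and 11 and 9 in uninjured libraries. The gene that fell was Srf, encoding serum response factor (-0.91, edgeR adjusted p = 0.04996). Jun (-0.02), Dusp1 (0.00) and Nr4a1 (-0.20), also immediate early genes, did not pass, nor did Egr2.

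Among 8 listed genes of TGF-beta signalling, the pathway upstream of Scx, 2 rose and none fell, with a median of 0.33, and this count is near the share of all features called in either direction (29.0%). They were the receptor gene Tgfbr2 (1.18, edgeR adjusted p = 0.0207) and the ligand gene Tgfb1 (1.14, edgeR adjusted p = 0.0419). Tgfbr2 had 14.2, 13.7 and 11.0 CPM in contralateral, 29.3 and 29.2 CPM in tenotomy and in the uninjured libraries it stood near the tenotomy level in replicate 1 and at 14.3 CPM in replicate 2. In the edgeR fit of all 7 libraries, none of the genes of these 4 lists was called in the comparisons with uninjured tendon, where no feature at all was called (0.00%).

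**Figure D4:**
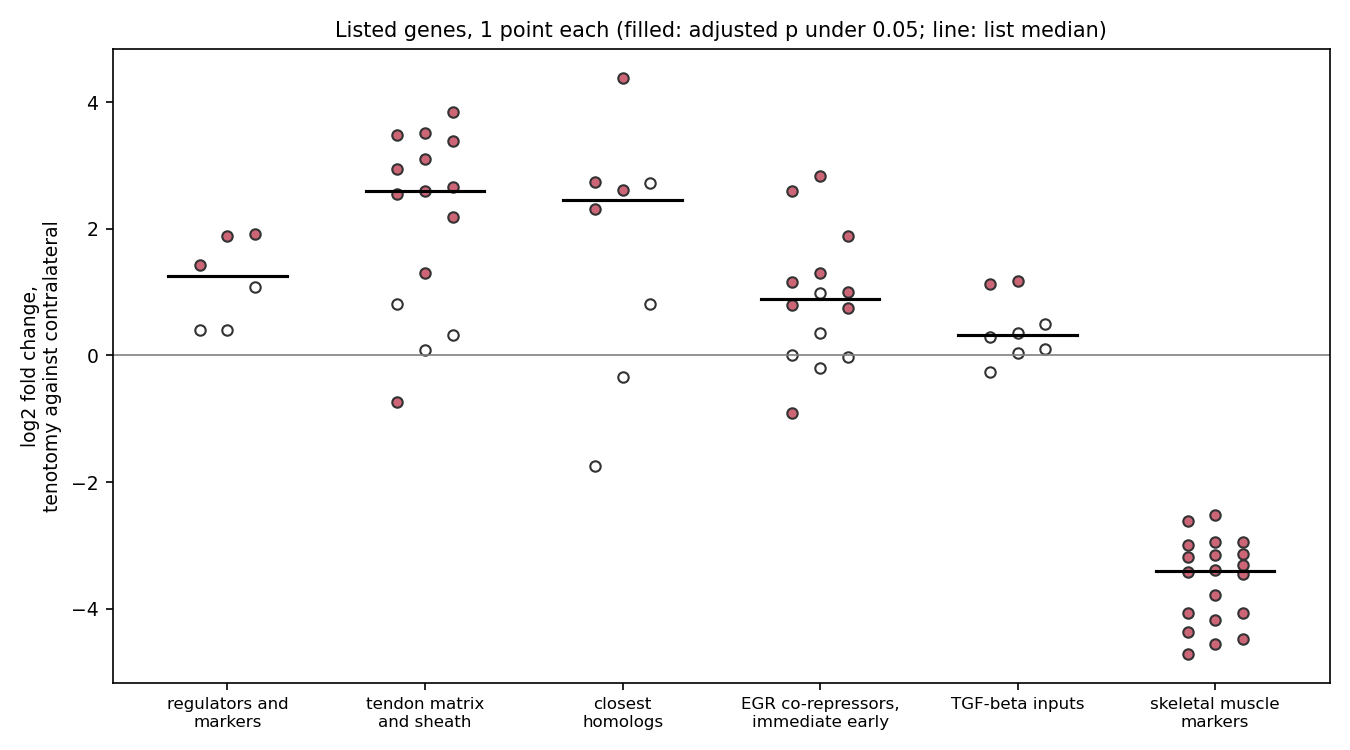
Log2 fold change of tenotomy against contralateral for each listed gene (1 point per gene, filled where the edgeR adjusted p is under 0.05) with the list median as a line. The medians are 1.26 for the 6 regulators and markers, 2.61 for tendon matrix and sheath genes, 2.46 for the homologs, 0.89 for immediate early genes and EGR co-repressors, 0.33 for TGF-beta inputs and -3.41 for skeletal muscle markers.

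Markers of some other cell types moved with the same comparison. All 20 skeletal muscle markers fell at the tenotomy site, with a median of -3.41. Of 12 chondrocyte markers, 9 of the 11 tested rose, and Matn1 had at most 1 count. The sum of the list was 27.8 to 52.6 CPM in contralateral, 325.2 and 328.9 CPM in tenotomy, 132.6 CPM in uninjured replicate 1 and 49.1 CPM in uninjured replicate 2. Most of the contralateral sum was Comp, which is also listed as a tendon matrix gene. Comp had 19.6 to 39.7 CPM in contralateral, 48.7 to 48.9 CPM in tenotomy and 25.4 to 42.8 CPM in uninjured libraries. Of 10 macrophage and leukocyte markers, 8 rose, from sums of 33.9 to 41.4 CPM in contralateral to 129.0 and 131.2 CPM in tenotomy libraries, with 132.5 and 41.2 CPM in the uninjured libraries. Of 7 proliferation genes, 5 of the 6 tested rose, and of 8 fibroblast and mesenchymal progenitor markers 7 rose and 1 fell. Of 7 adipocyte markers 4 fell, of 7 endothelial markers 1 fell, of 7 Schwann cell markers 2 rose and of 5 erythroid markers 2 rose. Of all features tested, 13.6% rose and 15.4% fell, 29.0% in either direction. The endothelial count is near the share that fell, and the Schwann cell count near the share called in either direction. Only 4 of 8 osteoblast markers were tested, of which 1 rose and 2 fell, and Bglap, Bglap2 and Sp7 had at most 2, 1 and 4 counts. The part of these cell types in the values of Scx, Egr1, Tnmd and Thbs4 was not tested. With the listed muscle genes left out of the scaling and the test, the log2 fold changes were 1.43 for Scx, 1.92 for Egr1, 1.89 for Tnmd and 1.08 for Thbs4. This checks only the scaling. It cannot show the part of muscle in these values, because the tissue in each library stays the same.

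Over the 7 libraries, the genes whose log2 CPM followed each member most closely were taken from 2016 candidates with a mean log2 CPM of at least 3, with Pearson's r as a description. For Tnmd these were Lrp1 (r = 0.998), Iqgap1 (0.995) and S100a6 (0.994), and for Thbs4 Thbs1 (0.996), Pign (0.995) and Gpx3 (0.994). Scx was followed by Nsd3 (0.981), Lats2 (0.980) and Fosl2 (0.979), and Egr1 by Rian (0.985), Angptl2 (0.985) and Hspg2 (0.983). With r over 0.9 there were 395 candidates for Tnmd, 356 for Thbs4, 273 for Egr1 and 269 for Scx. Mkx and Egr2 followed few others: Mkx had 5 such candidates, led by Igfbp6 (0.977), Sp1 (0.929) and Pttg1ip (0.926), and Egr2 had 0, its closest being Aff4 (0.867), Top1 (0.852) and Klf13 (0.826). The points share their libraries and scaling, and they fall into 2 clusters (contralateral with uninjured replicate 2, tenotomy with uninjured replicate 1).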

How the data were processed

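Total RNA was sequenced in 7 libraries, and the deposited file of each lists 103639 transcripts. Per the file headers, the values are estimated counts, which are not normalized, and TPM, which the authors' tool scaled by effective length. The submitters' processing notes name kallisto, FastQC 0.11.4 and the build GRCh38, a human build, while the transcript IDs are those of mouse; the annotation release is not given in the sources used here.

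Transcripts were matched without version to GENCODE M21 (GRCm38): 101510 matched, 57625 of them with the same version, and 2129 were kept as single features. Estimated counts were summed per gene and rounded. Features with low counts were removed by filterByExpr (minimum count 10), which left 16028. The test was edgeR's quasi-likelihood test (edgeR 4.0.16, R 4.3.3) on all 7 libraries with 3 group means, TMM scaling and Benjamini-Hochberg adjustment over all features tested, with a threshold of 0.05. SE is the log2 fold change divided by the square root of F, and intervals use the t distribution of the fit; log2 CPM has a prior count of 2. Exact Poisson intervals cover counting error only. Replicate numbers follow accession order and pair no libraries. The scripts were tested on simulated data.

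The members were named whatever their values. Lists are given by counts and median with at most 4 changed genes named (the 2 largest rises and 2 largest falls past the threshold), all tested homologs, and genes that did not pass for their level. The 3 genes most alike each member were taken by Pearson's r. The members and lists were chosen with earlier results of these data known. Alternatives were other scalings, DESeq2 1.42.0, limma-voom 3.58.1, other count filters, fits of only the groups compared, the title-number series as a covariate, removal of the most counted or muscle genes, a test against a 1.5-fold change, length-scaled TPM and leaving out each library.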

Additional observations from a re-analysis of the deposited data

How the results depend on the processing

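In tenotomy against contralateral, each of the 6 genes kept a positive log2 fold change in edgeR, DESeq2 and limma-voom under every alternative. No paired analysis was possible because the replicate numbers follow accession order and the labels tie no library of one group to one of another. The count of genes past the threshold was 4643; it was 7385 with only the groups compared and 1565 in a test against a 1.5-fold change, and between 0 and 7336 with 1 library left out (members 0 to 4). In tenotomy against uninjured the count was 0, and it was 145 with DESeq2, 15 with no filter on low counts and 4 with the title-number series as covariate, and 0 to 4275 with 1 library left out (members 0 to 4). In contralateral against uninjured it was 0, and it was 223 with DESeq2, 337 with no filter and 2466 with the series as covariate (which leaves uninjured replicate 1 as the comparator), and 0 to 5393 with 1 library left out (members 0 to 3); 2, 2 and 3 members passed in the first 3 of these. Signs changed for Mkx against uninjured at the tenotomy site (0.0502 with the series as covariate and 0.11 with length-scaled TPM) and in contralateral tendon (0.0521 with length-scaled TPM). They also changed in contralateral against uninjured for Egr2 (0.05 without contralateral replicate 3 and 0.14 without uninjured replicate 2, within -0.16 to 0.14 over all libraries left out) and Thbs4 (0.15 without uninjured replicate 1, within -1.05 to 0.15), and for the log2 ratio of mean Mkx levels as gene TPM (-0.056). The cause was not tested. Thbs4 in tenotomy against contralateral passed under 10 of the 20 alternatives, among them DESeq2 (adjusted p = 0.0189), upper quartile scaling (edgeR adjusted p = 0.0438), no filter on low counts (0.0193) and a minimum count of 30 (0.0466). The series as covariate, also among them, leaves only tenotomy replicate 1 to compare with the contralateral libraries. Thbs4 did not pass under the other 10, among them limma-voom (adjusted p = 0.0658) and length-scaled TPM (edgeR adjusted p = 0.056). Separately, the median of all genes in that comparison was 0.113 with upper quartile scaling and 0.153 with library totals, against -0.001. Scx and Egr2, with at most 56 counts in a library, are the members whose values depth limits most.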
